A study of Mus musculus with 15 samples.

Results

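The 10 genes described here encode immune checkpoint receptors, their ligands and proteins tied to T cell exhaustion: Cd274, Pdcd1lg2, Pdcd1, Havcr2, Lag3, Tigit, Btla, Cd160, Tox and Entpd1. They were chosen by name from the deposited gene table, which listed 13938 protein-coding genes, and all 10 were found there. The study induced hepatocellular carcinoma (HCC) in C57BL/6J mice and asked how the tumour affects the thymus. Model mice had intraperitoneal diethylnitrosamine (DEN), a carcinogen that alkylates DNA, and the hepatotoxin carbon tetrachloride (CCl4); normal mice had corn oil, and the labels give neither ages nor doses. The 15 samples were 3 big nodules, 3 small nodules, 3 livers of normal mice, 3 thymi of model mice and 3 thymi of normal mice. The thymi and both nodules came from the same model mice, numbered 8, 15 and 25. Normal thymi came from mice 2, 3 and 5; the liver columns carry the numbers 2, 3 and 5, but the liver titles name mouse 2 once and mouse 3 for the other two, so livers are called by their column number and may stem from 2 animals instead of 3.

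Checkpoint receptors are surface proteins that dampen an activated T cell when a ligand engages them. PD-1 (Pdcd1) binds PD-L1 (Cd274) and PD-L2 (Pdcd1lg2), and interferon-gamma acting through JAK kinases and IRF1 is the best known inducer of PD-L1. TIM-3 (Havcr2), LAG-3 (Lag3), TIGIT (Tigit), BTLA (Btla) and CD160 (Cd160) are further inhibitory receptors, each with its own partners on tumour, myeloid or endothelial cells. TOX is a transcription factor needed both for the exhausted state of T cells and for the maturation of CD4 T cells in the thymus. CD39 (Entpd1) is an ectoenzyme that breaks down extracellular ATP, on exhausted and regulatory T cells but also on macrophages and vascular endothelium.

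On mm10, the gene table places Cd274 at chr19:29367455-29388095 and, next to it on the same plus strand, Pdcd1lg2 at chr19:29410919-29471157. Entpd1 is on the plus strand of the same chromosome at chr19:40612366-40741602. Tigit (chr16:43648861-43664184, minus strand) and Btla (chr16:45224315-45252895, plus strand) share another chromosome. The others are Pdcd1 at chr1:94038305-94052553, Lag3 at chr6:124904361-124911705, Cd160 at chr3:96798763-96829351 and Tox at chr4:6686353-6991557, all on the minus strand, and Havcr2 at chr11:46454935-46481255 on the plus strand.

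The promoters of the members that were higher in nodules give the sequence context. RefSeq's GRCm38.p6 table matched 8 of the 10 members by symbol, in 10 windows; Lag3 and Tox had no entry in the table. The window is the 250 bases before the annotated start, on the strand of the gene, with matches to any of 5 motifs in capitals, searched on both strands. The motifs were the core of the interferon-stimulated response element (GAAA and again GAAA, with any 2 bases between), TTCNNNGAA (STAT), TGANTCA (AP-1), TGTGGT (RUNX) and GGAAA (NFAT core); where a motif lies on the other strand, its reverse complement is in capitals. The Cd274 window is at chr19:29367188-29367437, plus strand, the Havcr2 window at chr11:46454681-46454930, plus strand, and the Btla window at chr16:45224087-45224336, plus strand. The Entpd1 window at chr19:40659520-40659769, plus strand, lies before the start of the transcript Entpd1-201.
Cd274: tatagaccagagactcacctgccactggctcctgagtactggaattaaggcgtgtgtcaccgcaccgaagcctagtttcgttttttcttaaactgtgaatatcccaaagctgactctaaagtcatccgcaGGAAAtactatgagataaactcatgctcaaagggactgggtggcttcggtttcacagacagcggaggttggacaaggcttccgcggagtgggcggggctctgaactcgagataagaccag
Havcr2: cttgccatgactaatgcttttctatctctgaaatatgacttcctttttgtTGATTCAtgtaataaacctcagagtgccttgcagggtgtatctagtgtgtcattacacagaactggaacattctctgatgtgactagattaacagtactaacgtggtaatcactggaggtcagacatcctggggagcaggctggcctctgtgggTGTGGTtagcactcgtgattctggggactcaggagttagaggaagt
Btla: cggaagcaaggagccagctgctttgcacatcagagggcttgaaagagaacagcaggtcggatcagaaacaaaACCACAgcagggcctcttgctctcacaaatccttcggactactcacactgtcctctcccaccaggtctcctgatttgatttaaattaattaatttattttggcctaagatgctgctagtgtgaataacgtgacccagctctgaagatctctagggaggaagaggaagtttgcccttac
Entpd1: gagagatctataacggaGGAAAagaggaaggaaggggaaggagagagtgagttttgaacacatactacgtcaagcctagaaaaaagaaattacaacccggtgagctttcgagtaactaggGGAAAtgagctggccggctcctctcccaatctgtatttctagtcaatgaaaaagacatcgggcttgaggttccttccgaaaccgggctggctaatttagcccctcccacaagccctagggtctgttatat

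The Cd274 window held an NFAT core 120 to 116 bases before the start and no other of the 5 motifs. The Havcr2 window held an AP-1 site 200 to 194 bases and a RUNX site 46 to 41 bases before the start. The Btla window held a RUNX site 178 to 173 bases before the start, and the Entpd1 window held NFAT cores at 233 to 229 and 130 to 126 bases. None of the windows of the 8 members held the interferon-stimulated core. Of 32851 promoter windows of the same length, 2.98% held that core, 7.02% TTCNNNGAA, 6.75% TGANTCA, 14.1% TGTGGT and 55.6% GGAAA, so the NFAT core is in most promoters. A match describes these letters and does not show that a factor binds there.

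Values are FPKM, read fragments normalised for transcript length and for the number of fragments mapped in a sample, which allow levels to be compared between genes. They summed over the table to 332686 to 338793 in big nodules, 331746 to 338165 in small nodules, 364160 to 377984 in livers, 225669 to 234102 in model thymi and 227269 to 257205 in normal thymi. The organs matched their labels: Alb, serum albumin, lay at 89.96 to 135.3 FPKM in thymi and at 10580 to 26620 FPKM in nodules and livers, and Rag1, of the lymphocyte recombinase, at 232.7 to 450.6 FPKM in thymi and at 0.133 to 0.802 FPKM in nodules and livers. Transcripts of the mitochondrial genome held 2.88% of the summed FPKM in the big nodule of mouse 25, against 6.93 to 11.1% in the other nodules and livers. The normal thymus of mouse 3 correlated least with the others of its group (Pearson r 0.968 and 0.973 across genes, which are not independent replicates). The number of reads is not given; the spacing of small values implied 8010000 to 12720000 mapped fragments per sample, and member values are set beside the read pairs this implies where that matters.

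**Figure D1:**
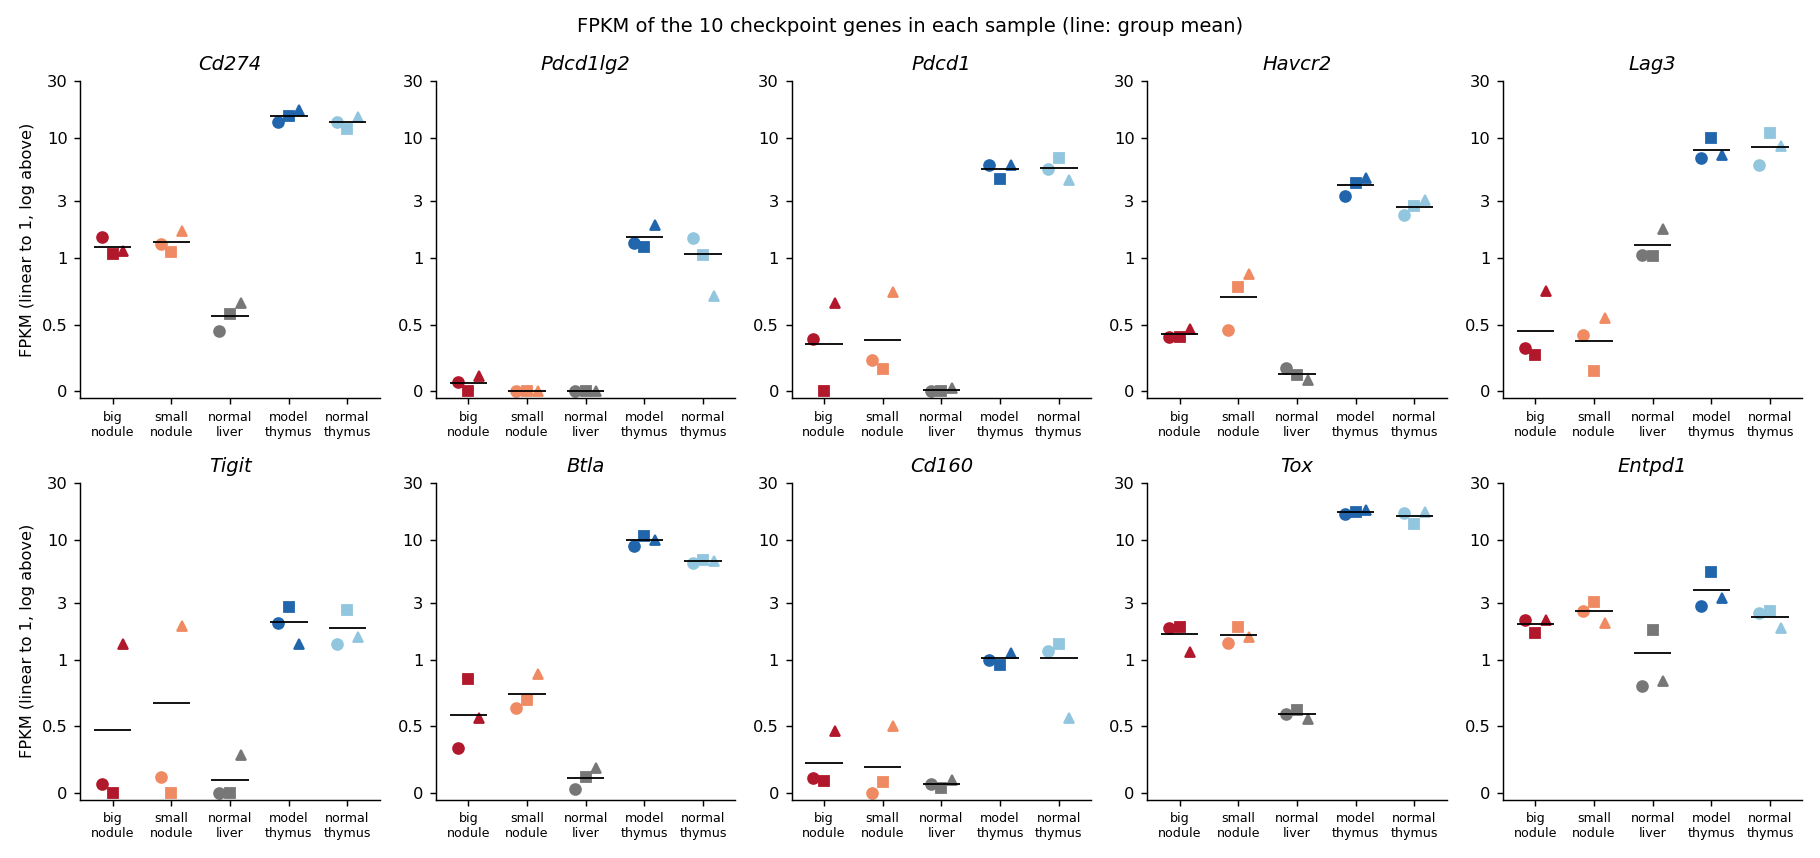
FPKM of each of the 10 genes (vertical axis, linear up to 1 and logarithmic above) in every sample of the 5 groups; the line is the group mean. Circles, squares and triangles are mice 8, 15 and 25 in model groups and column numbers 2, 3 and 5 in normal groups. Nodules lay above livers for Cd274, Havcr2, Btla and Tox and below them for Lag3; thymi lay above livers for each of the 10 genes, by least for Entpd1.

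Nodules were compared with normal livers to ask which checkpoint transcripts differed between them. The livers came from mice given corn oil, so tumour growth and the chemicals cannot be told apart here. Cd274, Tox and Entpd1 were higher in nodules, at 1.98 to 2.73 times the liver mean in FPKM, and Lag3 was lower, at 0.320 times the liver mean. Havcr2 and Btla, which were too low for the filter, were at 4.47 and 5.84 times the liver mean, and Pdcd1, Tigit and Cd160 were high mainly in the nodules of 1 mouse. The livers held at most 4.98 implied read pairs of Havcr2 and 6.78 of the transcript Btla-202. The animal was the replicate, so both nodules of an animal were averaged on the log2 scale before the test. Genes with at least 1 FPKM in at least 3 samples were tested with limma on log2(FPKM + 1), a scale that understates changes of low genes, with Benjamini-Hochberg adjustment over 10669 genes. Of the 10 members 4 passed this filter, and of these 3 were called higher and 1 lower at an adjusted p under 0.05; of all genes tested, 27.4% were called higher and 13.1% lower, 40.5% in all. Single nodules and livers did not overlap in 39.7% of genes tested, 27.4% higher and 12.3% lower. Cd274, Tox and Entpd1 passed the filter only through the nodules and Lag3 only through the livers, so that a difference was built into their being tested and their count is no evidence about the family. The median log2 difference over all genes was 0.13; it was 0.24 after rescaling to equal FPKM sums, -0.05 after quantile normalization and -0.03 with median-of-ratios scaling, and the share of calls that were higher was 67.6% without scaling and 78.8%, 49.6% and 48.9% under these. In bulk tissue, more cells of a type and more RNA per cell cannot be told apart.

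Cd274, the ligand PD-L1, had 1.51, 1.09 and 1.14 FPKM in the big nodules of mice 8, 15 and 25, and 1.31, 1.13 and 1.67 FPKM in their small nodules. The livers had 0.455, 0.578 and 0.667 FPKM. Every nodule lay above every liver, with 31.6 to 52.9 implied read pairs per nodule and 17.2 to 26.2 per liver. The log2 difference was 0.56 (SE 0.113, adjusted p = 0.00572, limma, n = 3 mice and 3 livers). It was 0.15 with an adjusted p of 0.339 after quantile normalization, and it remained past the threshold in 16 of 17 alternatives.

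Pdcd1lg2, the other PD-1 ligand, was at or near 0 in nodules and livers. It had 0.0717, 0 and 0.118 FPKM in big nodules and was listed at 0 in all 3 small nodules and all 3 livers. No fold can be given against a group listed at 0. PD-1 itself was low as well: Pdcd1 had 0.395, 0 and 0.666 FPKM in big nodules, 0.237, 0.169 and 0.743 FPKM in small nodules, and 0, 0 and 0.0262 FPKM in livers. It was above every liver in 5 of 6 nodules, the exception being the big nodule of mouse 15. A fit without the filter gave a log2 difference of 0.41 (SE 0.148, adjusted p = 0.0656 over 13745 genes, of which 37% were called); without mouse 15 it was 0.57 with an adjusted p of 0.015, and with a pseudocount of 0.1 it was 1.80 with 0.03. The nodules held at most 13.2 implied read pairs of Pdcd1 and the livers at most 0.548.

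Havcr2, the receptor TIM-3, which is found on myeloid cells as well as on T cells, had 0.410, 0.410 and 0.470 FPKM in big nodules and 0.464, 0.781 and 0.885 FPKM in small nodules. The livers had 0.175, 0.125 and 0.0821 FPKM, all below every nodule. Implied read pairs of Havcr2 were 8.93 to 13.2 in big nodules, 10.9 to 21.0 in small nodules and 2.42 to 4.98 in livers. Without the filter the log2 difference was 0.47 (SE 0.07, adjusted p = 0.00232, limma). Btla, an inhibitory receptor of T and B cells that binds HVEM, had 0.342, 0.857 and 0.561 FPKM in big nodules and 0.640, 0.697 and 0.894 FPKM in small nodules. The livers had 0.0294, 0.120 and 0.192 FPKM, and the groups did not overlap. Implied read pairs of Btla-202 were 8.04 to 22.3 in big nodules, 7.80 to 20.8 in small nodules and 1.0 to 6.78 in livers. The log2 difference of Btla without the filter was 0.57 (SE 0.0887, adjusted p = 0.00264, limma). Both passed the threshold in all 13 alternatives run on the fit without the filter, with adjusted p of 0.00166 to 0.0324 for Havcr2 and 0.00205 to 0.026 for Btla.

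Tox had 1.85, 1.88 and 1.16 FPKM in big nodules and 1.38, 1.89 and 1.54 FPKM in small nodules. The livers had 0.595, 0.626 and 0.557 FPKM, less than every nodule and with little spread. The log2 difference was 0.71 (SE 0.115, adjusted p = 0.00194, limma, n = 3 mice and 3 livers), and it stayed past the threshold in all 17 alternatives, from 0.33 under quantile normalization to 1.29 with a pseudocount of 0.1. By mouse means Tox was lowest in mouse 25, at 1.35 FPKM against 1.62 and 1.89 FPKM in mice 8 and 15, although the small nodule of mouse 25 lay above that of mouse 8.

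Entpd1, the ectoenzyme CD39, had 2.14, 1.66 and 2.13 FPKM in big nodules and 2.54, 3.02 and 2.04 FPKM in small nodules. The livers had 0.803, 1.77 and 0.845 FPKM, so liver 3 lay above the big nodule of mouse 15 and the groups overlapped. The log2 difference was 0.62 (SE 0.176, adjusted p = 0.0238, limma). Its call passed in 10 of 17 alternatives: the adjusted p was 0.157 after quantile normalization, 0.057 with median-of-ratios scaling, 0.0733 with big nodules alone, 0.0865 without liver 2, 0.0728 without liver 5, 0.0619 without mouse 8 and 0.0608 without mouse 15. Summed FPKM of 13 macrophage and Kupffer cell markers was 278.2 to 412.6 in nodules and 162.9 to 217.2 in livers. Of 12 tested, 8 were called higher and none lower, and no marker was listed at 0 throughout a group. The 4 not called were Clec4f, Timd4, Vsig4 and Marco, with log2 differences of -0.12, -0.71, 0.30 and 0.40 (adjusted p 0.0584 to 0.484, limma). Timd4 was called lower under quantile normalization and median-of-ratios scaling (adjusted p = 0.0205 and 0.0283, limma). Among 10 endothelial markers 7 were called higher and none lower, with sums of 102.9 to 138.7 FPKM in nodules and 68.2 to 78.9 FPKM in livers. The 7 hepatocyte markers rose in sum too, with 31840 to 45200 FPKM in nodules and 19770 to 22910 FPKM in livers. Of these, 4 were called higher and 1 lower, and under quantile normalization 3 higher and 0 lower. Summed FPKM of 10 dendritic cell markers was 7.24 to 10.9 in nodules and 2.72 to 4.10 in livers, with 2 of 4 tested called higher. That of 8 B cell markers was 2.26 to 4.77 in nodules and 0.662 to 1.44 in livers, with 2 of 2 tested called higher. Both tested B cell genes passed the filter only through nodules, with at most 0.444 FPKM in livers. A difference was thus built into their being tested. Over all genes tested 27.4% were called higher. Under quantile normalization and median-of-ratios scaling 7 macrophage markers were called higher and 1 lower, and 6 endothelial markers higher and 1 to 2 lower; of the B cell markers 0 were called higher under quantile normalization. The part of these cells in the Entpd1, Havcr2, Cd274, Btla and Tox values was not tested.

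**Figure D2:**
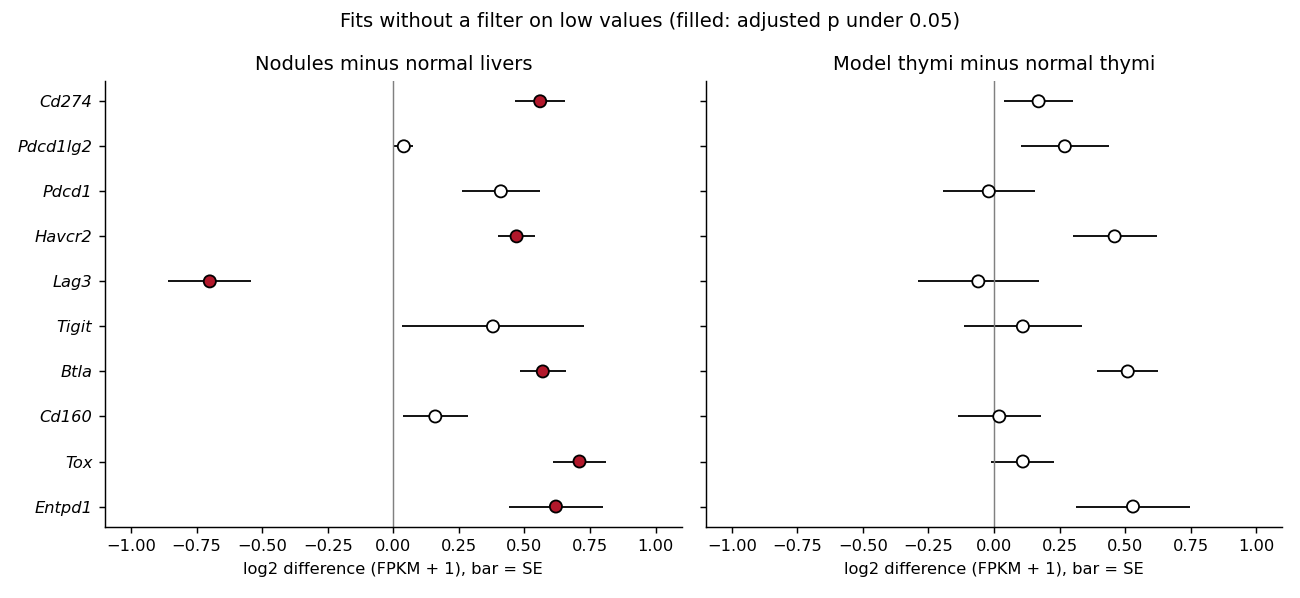
Log2 differences of FPKM + 1 with their standard errors (horizontal axis) for the 10 genes in limma fits without a filter on low values; filled points passed an adjusted p of 0.05. In nodules against livers 5 genes were higher and Lag3 was lower, in a fit where 37% of 13745 genes were called in either direction. In model against normal thymi no gene passed, and among the 10 Havcr2, Btla and Entpd1 had the largest differences, 0.46 to 0.53.

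The nodules of mouse 25 stood apart in the receptors of cytotoxic lymphocytes. Tigit, a receptor of T and natural killer (NK) cells for the poliovirus receptor, had 1.35 FPKM in the big and 1.91 FPKM in the small nodule of mouse 25. In the other nodules it had 0.0693 and 0.118 FPKM in mouse 8 and was listed at 0 in both of mouse 15; livers had 0, 0 and 0.286 FPKM. Nodules of mouse 25 were thus the only samples among nodules and livers with more than 1 FPKM of Tigit, and the other nodules lay within the range of the livers. Cd160, a receptor of NK cells and CD8 T cells, had 0.466 and 0.503 FPKM in the big and small nodule of mouse 25, against 0 to 0.111 FPKM in the other nodules and 0.0384 to 0.0965 FPKM in livers. Pdcd1 followed the same order, with 0.666 and 0.743 FPKM in mouse 25 and 0 to 0.395 FPKM in the other nodules.

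Sums of lymphocyte markers were also highest in the nodules of mouse 25. The summed FPKM of 12 T cell markers was 22.6 and 22.4 in the big and small nodule of mouse 25, 8.05 to 11.1 in the other nodules and 4.57 to 5.38 in livers. The sum of 9 matched cytotoxic T and NK cell markers was 19.1 and 27.0 in the nodules of mouse 25, 5.15 to 10.4 in the other nodules and 1.42 to 3.47 in livers; no marker of either list was at 0 throughout a group, and 1 of 4 tested T cell and 1 of 3 tested cytotoxic markers were called higher over all nodules, beside 27.4% of all genes. Some tested markers, such as Ccl5 with at most 0.763 FPKM in livers, passed the filter only through nodules. For these a difference was built into their being tested. The part of lymphocyte content in the receptor values was not tested. Across all nodules, the fit without a filter gave log2 differences to liver of 0.38 for Tigit (SE 0.346, adjusted p = 0.424) and 0.16 for Cd160 (SE 0.125, adjusted p = 0.354). Without mouse 25 these were -0.06 and 0.00. The mitochondrial share was 2.88% in the big and 7.97% in the small nodule of this mouse, and its part in these values was not tested.

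**Figure D3:**
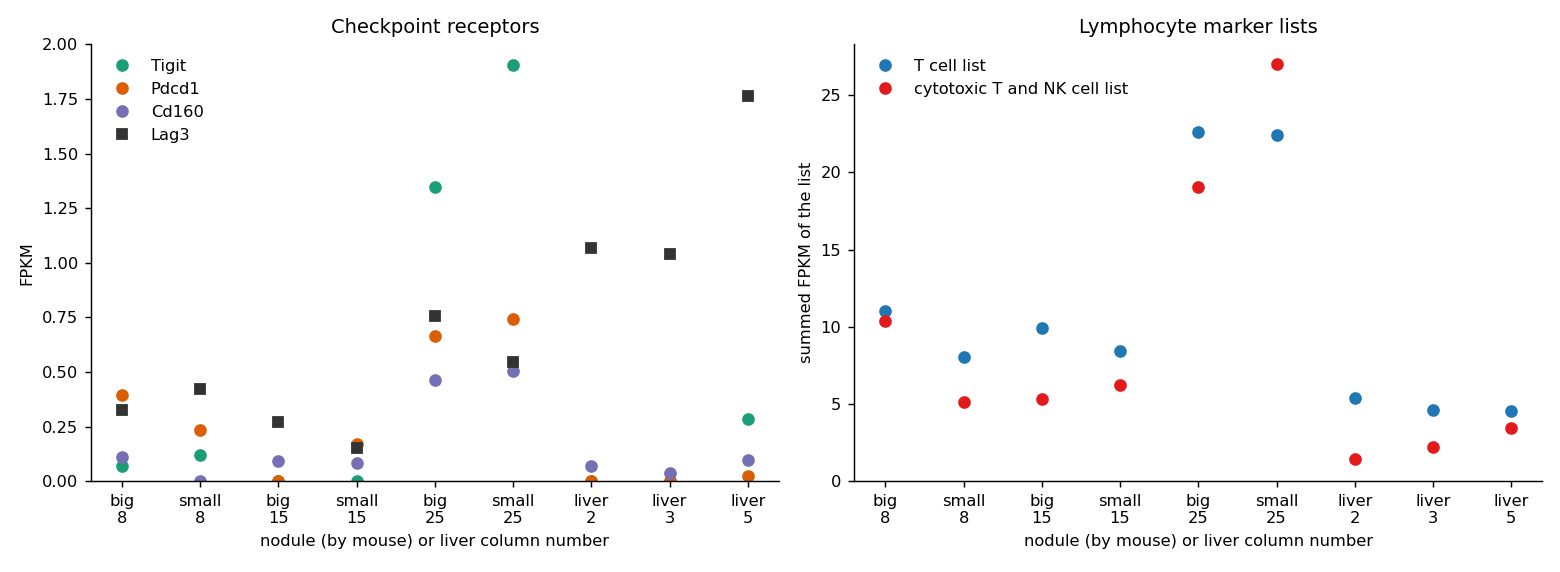
FPKM of Tigit, Pdcd1, Cd160 and Lag3 (left) and summed FPKM of the T cell and the cytotoxic T and NK cell marker lists (right) in the 6 nodules, by mouse, and the 3 livers; each point is a sample. Tigit, Pdcd1, Cd160 and both lists were highest in the nodules of mouse 25, while Lag3 was highest in the livers.

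Lag3, a receptor for MHC class II related to CD4, went the other way. It had 0.324, 0.271 and 0.757 FPKM in big nodules and 0.422, 0.155 and 0.547 FPKM in small nodules. The livers had 1.07, 1.04 and 1.76 FPKM, above every nodule, with 2.99 to 16.4 implied read pairs per nodule and 21.3 to 40.3 per liver. The log2 difference was -0.70 (SE 0.167, adjusted p = 0.0122, limma), and it was past the threshold in all 17 alternatives in which it was tested. Among nodules Lag3, like Tigit and Cd160, was highest in mouse 25.

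The liver values of Lag3 ran alongside those of its upstream neighbour. Ptms, the gene of parathymosin, lies on the same minus strand of chromosome 6 at 124913681 to 124920103 (mm10), and ends 1976 bases before the start of Lag3 (124904361 to 124911705). Ptms was picked as the one gene of the table found within 5000 bases upstream of any member on the same strand, after the Lag3 values were seen. It had 101.6, 99.9 and 189.1 FPKM in big nodules, 120.7, 113.2 and 76.6 FPKM in small nodules, and 270.3, 262.2 and 470.3 FPKM in livers. It fell by 1.51 on the log2 scale in nodules (SE 0.225, adjusted p = 0.00128, limma). Lag3 amounted to 0.137 to 0.715% of Ptms in nodules and to 0.394%, 0.397% and 0.374% in the 3 livers, to 7.46 to 15.8% in model thymi and to 5.73 to 8.04% in normal thymi. The livers, of which 2 and 3 had nearly the same values of both genes, thus held Lag3 in a nearly fixed ratio to Ptms. Nodules and thymi did not. Whether reads that run on from Ptms are part of the liver value was not tested, since only gene and transcript values were used.

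**Figure D4:**
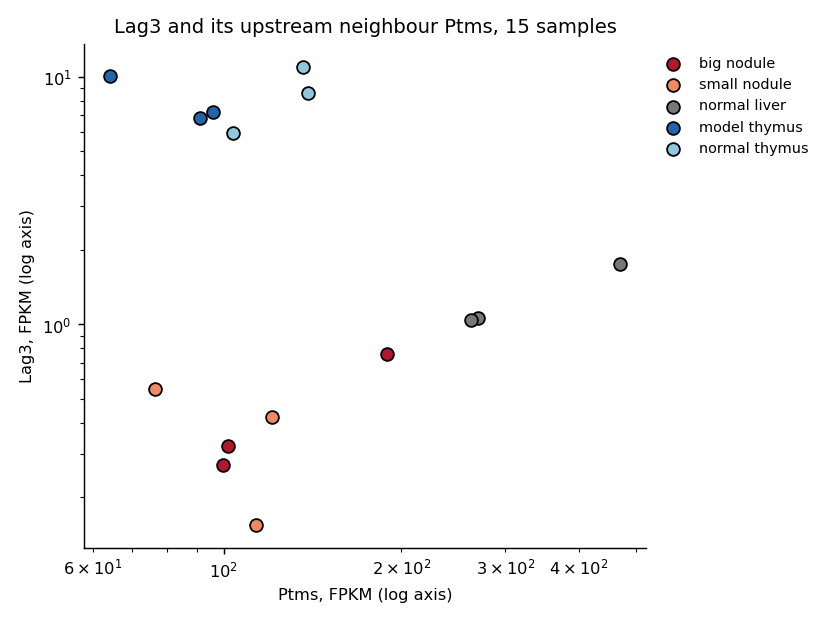
Lag3 against Ptms in FPKM, both axes logarithmic, one point per sample and one colour per group. The livers lie at the upper right of the nodule and liver samples, with 262.2 to 470.3 FPKM of Ptms, above the nodules for both genes, while the thymi form a separate cloud where Lag3 held at least 5.73% of the Ptms value.

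A second neighbour bears on Cd160. The 5′ end of the gene overlaps that of Pdzk1, a scaffold protein of liver and kidney, by 68 bases on the opposite strand of chromosome 3. Pdzk1 had 19.6 to 32.6 FPKM in nodules, 23.4 to 28.4 FPKM in livers and 0.242 to 0.364 FPKM in thymi. In the transcript table Cd160-201 was listed at 0 in all 3 livers and in 3 of 6 nodules, although the gene value in livers was 0.0384 to 0.0965 FPKM. The library kit keeps strand, per the labels' protocols, but the strand setting of the counting is not given in the sources used here. Reads within the 68 shared bases therefore cannot be assigned to 1 of the 2 genes. Their part in the gene values was not tested. Cd160-201 spans 96800155 to 96814521, outside the shared bases, and had 0.990 and 0.880 FPKM in the big and small nodule of mouse 25. Antisense genes also overlap Cd274, Pdcd1lg2 and Tox, and no values of them were analysed here.

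Binding partners of the members were followed to see whether ligands in the nodules moved with the receptors. Of 21 listed partners 20 were matched and 14 passed the filter, and 7 of these were higher in nodules and none lower, against 27.4% and 13.1% of all genes tested; the median log2 difference was 0.44, beside 0.13 over all genes. Pvr, the poliovirus receptor bound by TIGIT, had 4.33 ± 0.519 FPKM in big nodules, 4.68 ± 0.168 FPKM in small nodules and 1.25 ± 0.145 FPKM in livers (SD, n = 3 each), with a log2 difference of 1.29 (SE 0.11, adjusted p = 9.02e-05, limma). Every nodule lay above every liver, including both nodules of mouse 15, where Tigit was listed at 0. MHC class II, the ligand of LAG-3, was higher too: H2-Aa rose by 1.73, H2-Eb1 by 1.84 and H2-Ab1 by 1.48 on the log2 scale (adjusted p = 0.00112, 0.00327 and 0.00991, limma), while Lag3 fell. Lgals3, a galectin reported to bind LAG-3, rose by 1.91, Hmgb1, a partner of TIM-3, by 0.57, and Nt5e, the ectoenzyme CD73 that acts after CD39, by 1.00 (adjusted p = 0.000406, 0.00462 and 0.0339, limma).

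Other partners did not pass. Fgl1, a liver-secreted ligand of LAG-3, had 132.5 ± 54.1 FPKM in big nodules, 116.0 ± 30.8 FPKM in small nodules and 102.4 ± 39.2 FPKM in livers. Lgals9, a ligand of TIM-3, had 168.5 ± 17.1 FPKM in big nodules, 197.5 ± 23.6 FPKM in small nodules and 164.5 ± 18.5 FPKM in livers. Both were abundant in all liver samples, with log2 differences of 0.30 (SE 0.346, adjusted p = 0.525) and 0.15 (SE 0.142, adjusted p = 0.437). Tnfrsf14, the HVEM ligand of BTLA and CD160, gave -0.08 (SE 0.113, adjusted p = 0.586). Ceacam1 and Nectin2 each gave 0.01, Nectin3 -0.60 and Clec4g -0.28, with adjusted p from 0.0703 to 0.972. Under quantile normalization and median-of-ratios scaling 2 partners were called lower and 6 higher, and the call of Nt5e was lost (adjusted p = 0.104 and 0.058). Cd80, Rgmb, Cd226, Cd96, Tnfsf14 and Adora2a were below the filter.

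Among 28 other checkpoint and costimulatory genes 23 were matched and 12 passed the filter, and all 12 of these were higher in nodules, beside a share of 27.4% of all genes. Sirpa, the macrophage receptor for CD47, rose by 2.25, Tnfrsf18, the costimulatory receptor GITR, by 2.14, Cd276, the B7 family protein B7-H3, by 1.76, Icosl, the ligand of ICOS, by 1.48, and Cd40 and H2-T23 by 1.22 each (adjusted p at most 0.000932, limma). Ifng, the gene of interferon-gamma, was not in the gene table, and a link of the interferon-gamma pathway list to Cd274 was not tested. Of 9 tested genes of this list, 8 were higher and none lower. They included both receptor chains, Ifngr1 by 2.34 and Ifngr2 by 1.56, the class I regulator Nlrc5 by 1.33, the chemokine Cxcl9 by 2.67 and the kinases Jak1 by 0.56 and Jak2 by 0.48 (adjusted p at most 0.0103, limma). Of 5 tested transcription factors of exhaustion and activation, Tox2 rose by 1.05 and Tcf7 by 0.90, Nr4a1 fell by 2.84 (adjusted p = 0.0392, 0.0148 and 0.012, limma), and Nfatc1 and Id2 did not pass. Under the 3 scalings 9 to 12 of the other checkpoint genes and 7 to 9 of the interferon-gamma genes were called higher and none lower, while Tox2 and Tcf7 were not called under quantile normalization (adjusted p = 0.245 and 0.0624). Genes of these lists that were below 1 FPKM in every liver passed the filter through their nodule values, so a difference was built into their being tested. Others had more than 1 FPKM in every liver. The counts mix both kinds, so they describe the lists and do not set them apart.

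**Figure D5:**
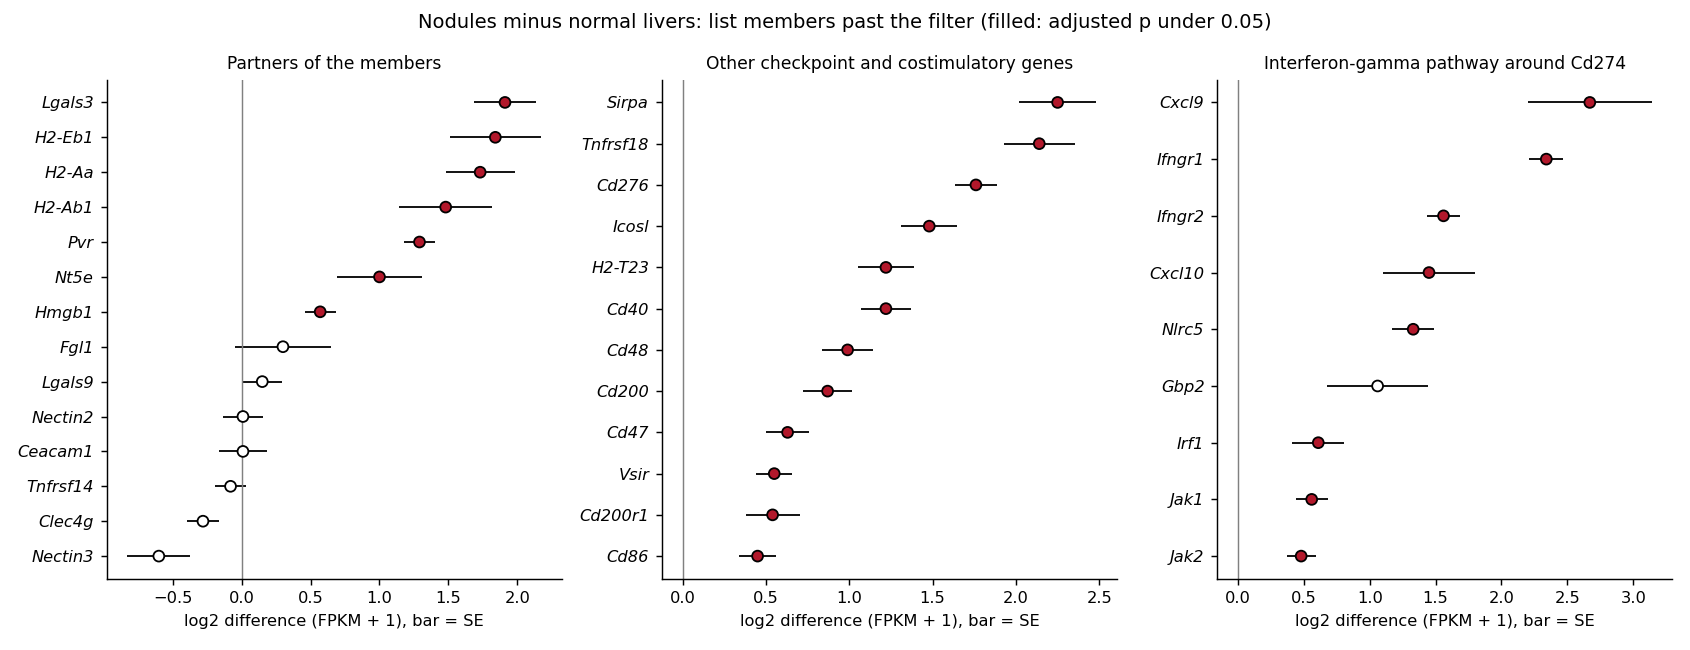
Log2 differences of FPKM + 1 between nodules and livers with standard errors, for the genes past the filter in 3 lists; filled points passed an adjusted p of 0.05. Of the partners 7 of 14 passed, of the other checkpoint genes 12 of 12 and of the interferon-gamma pathway 8 of 9, all higher in nodules. Of all genes tested 27.4% were called higher.

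Big and small nodules of the same 3 mice were compared to ask whether nodule size goes with checkpoint expression. None of the 10415 genes tested passed in limma (0% called; 417 had an unadjusted p under 0.05, 4% of them), and the fit with the mouse as a block also called none. Of the members 3 passed the filter: Cd274 gave -0.07 (SE 0.147, adjusted p = 0.962), Tox 0.01 (SE 0.163, adjusted p = 0.997) and Entpd1 -0.24 (SE 0.155, adjusted p = 0.949). Havcr2 was lower in the big nodule of all 3 mice, by 0.05, 0.34 and 0.36 on the log2 scale in mice 8, 15 and 25, but did not pass in the fit without a filter (-0.25, SE 0.11, adjusted p = 0.951). Of the other members, none had the same sign in all 3 mice.

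Thymi of model mice were compared with thymi of normal mice. Model mice had tumours, DEN and CCl4, and normal mice had corn oil, so effects of tumour and chemicals cannot be told apart. All 10 members passed the filter and none was called, and the same held for every other gene: limma called 0% of 11332 genes, with a smallest adjusted p of 0.099, although 1159 (10.2%) had an unadjusted p under 0.05. Without the normal thymus of mouse 2, 9 genes were called, none of them a member. The members with the largest differences were Btla, Entpd1 and Havcr2. Their model and normal thymi did not overlap, 3 of 10 members, all higher in model thymi; this held for 18.8% of all genes tested, 12.3% upward and 6.53% downward.

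Btla had 8.99, 10.8 and 10.1 FPKM in the model thymi of mice 8, 15 and 25, against 6.47, 6.83 and 6.69 FPKM in normal thymi. The mean was 9.95 ± 0.904 FPKM in model thymi and 6.66 ± 0.179 FPKM in normal thymi (SD, n = 3 each). The log2 difference was 0.51 (SE 0.118), with an unadjusted p of 0.00257 and an adjusted p of 0.481 in limma; over 15 alternatives the difference was 0.45 to 0.58 and the adjusted p 0.315 to 0.799.

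Havcr2 had 3.32, 4.27 and 4.64 FPKM in model thymi, against 2.27, 2.72 and 3.06 FPKM in normal thymi. Its log2 difference was 0.46 (SE 0.154, adjusted p = 0.481, limma). Entpd1 had 2.81, 5.42 and 3.31 FPKM in model thymi, against 2.48, 2.56 and 1.86 FPKM in normal thymi, with the model thymus of mouse 15 far above the rest. Its log2 difference was 0.53 (SE 0.21, adjusted p = 0.481), and 0.30 without the thymus of mouse 15. The summed FPKM of macrophage markers was 395.3 to 572.2 in model thymi and 299.3 to 469.7 in normal thymi, and that of B cell markers 34.6 to 53.0 in model thymi and 26.7 to 38.6 in normal thymi, both lists with no gene called. The groups overlapped in both sums, but not in that of 10 endothelial markers, which was 32.4 to 42.2 FPKM in model thymi and 23.3 to 28.0 FPKM in normal thymi; 3 of these markers passed the filter and none was called. Their part in the 3 differences was not tested.

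For the other 7 members, model and normal thymi overlapped. Cd274 had 13.6, 15.3 and 17.3 FPKM in model thymi, against 13.8, 11.9 and 15.0 FPKM in normal thymi (log2 difference 0.17, SE 0.136, adjusted p = 0.608). Tox, at 17.1 ± 0.678 FPKM in model thymi and 15.9 ± 2.02 FPKM in normal thymi, gave 0.11 (SE 0.124, adjusted p = 0.715). Pdcd1, at 5.51 ± 0.827 FPKM in model thymi and 5.62 ± 1.15 FPKM in normal thymi, gave -0.02 (SE 0.171, adjusted p = 0.968). Pdcd1lg2 gave 0.27, Tigit 0.11, Cd160 0.02 and Lag3 -0.06, with adjusted p of 0.559 to 0.957. None of the genes in the lists of partners, other checkpoint genes, exhaustion factors or the interferon-gamma pathway was called in thymi.

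The effect of the model was then compared between the organs in one fit, as nodules minus livers less model thymi minus normal thymi. Of 12683 genes tested, 22.2% were called, 14.6% with the nodule effect higher and 7.62% with it lower; the higher calls made up 65.6% of the calls, and 72%, 53.6% and 51.1% after equal sums, quantile normalization and median-of-ratios scaling. Tox was the only member called on this scale, with a difference of 0.60 (SE 0.168, adjusted p = 0.0226, limma). With a pseudocount of 0.1, Cd274 (0.89, adjusted p = 0.0201), Btla (1.3, adjusted p = 0.0278) and Lag3 (-1.45, adjusted p = 0.0444) were called as well, and Tox gave 1.18 (adjusted p = 0.00217). The Tox call was lost after rescaling to equal sums (0.56, adjusted p = 0.0599), under quantile normalization (0.28, adjusted p = 0.282), without the normal thymus of mouse 5 (adjusted p = 0.0556) and without the model thymus of mouse 8 (adjusted p = 0.0546). For Lag3 the difference was -0.64 (SE 0.301, adjusted p = 0.16), for Pdcd1 0.43 (SE 0.245, adjusted p = 0.249) and for Cd274 0.38 (SE 0.177, adjusted p = 0.15). Btla and Havcr2 gave 0.06 (SE 0.159) and 0.01 (SE 0.177) with the pseudocount of 1, and 1.3 and 0.94 (adjusted p = 0.0278 and 0.0503) with that of 0.1. In mean FPKM, Btla was at 5.84 times the liver level in nodules and at 1.49 times the normal level in model thymi, and Havcr2 at 4.47 and 1.52 times.

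Normal thymi and normal livers place the members by organ. The 8 members that passed the filter were all higher in thymi, as were 61.8% of the 11763 genes tested, of which 84.7% were called in either direction. The log2 differences were 3.40 for Tox, 3.21 for Cd274, 2.78 for Btla, 2.70 for Pdcd1, 2.03 for Lag3, 1.70 for Havcr2, 1.35 for Tigit and 0.65 for Entpd1 (adjusted p at most 0.0102, limma). Pdcd1lg2 and Cd160, tested without the filter, gave 1.04 and 0.90 (adjusted p = 0.00012 and 0.000606; 82.1% of genes were called in that fit). Every normal thymus lay above every normal liver for all 10 members, which held for 62% of the genes tested, 85.2% not overlapping in either direction. The members summed to 62.3 to 72.5 FPKM in model thymi and 57.4 to 60.4 FPKM in normal thymi, and to 6.27 to 8.83 FPKM in big nodules, 7.11 to 10.7 FPKM in small nodules and 3.20 to 4.51 FPKM in livers. The median over all genes was 0.86, and it was 1.36, 0.24 and 0.07 after equal sums, quantile normalization and median-of-ratios scaling, with 73% of calls higher without scaling and 80.4%, 57.8% and 51.8% under these. Entpd1 alone of the 8 depended on scaling, at -0.05 (adjusted p = 0.808) under quantile normalization and 0.05 (adjusted p = 0.827) with median-of-ratios scaling.

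The make-up of the family thus differed by tissue. Tox and Cd274 were the most abundant members in thymi, with 22.5 to 29.5% and 19.7 to 25.0% of the summed FPKM in normal thymi. Lag3 held 4.33 to 8.58% in big nodules and 1.95 to 5.93% in small nodules, against 24.2 to 39.0% in livers, where Entpd1, with 18.7 to 41.2%, was the other leading member. By group means the order was model thymi, normal thymi, nodules, livers for Cd274, Havcr2, Btla and Tox, with no overlap between thymi, nodules and livers. For Lag3 it was normal thymi, model thymi, livers, big nodules, small nodules. For Entpd1 each group overlapped the next in the order model thymi, small nodules, normal thymi, big nodules, livers. Tigit of normal thymi overlapped that of the small nodules, through mouse 25. Big and small nodules overlapped for each of the 10 genes; over the genes tested, 9.16% did not overlap, 3.16% higher and 6% lower in big nodules.

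Transcript values added detail for the genes with more than 1 listed transcript. Btla-202 was found in every sample, whereas Btla-201 was listed at 0 in all 3 livers and in 4 of 6 nodules. In thymi Btla-201 held 28.9 to 66.8% of the listed Btla transcripts in model mice and 33.7 to 92.4% in normal mice, and the 2 ranges overlapped. Entpd1-201 was found everywhere, while Entpd1-202 was listed at 0 in all livers and all big nodules and held 18.7 to 35.4% of Entpd1 in normal thymi. Cd274, Tox and Lag3 each had 1 listed transcript, and the directions of their nodule differences were the same when genes were taken as sums of transcripts. Tox-201 lay above the Tox gene value, with 31.5 against 16.5 FPKM in the model thymus of mouse 8 and 1.14 against 0.595 FPKM in liver 2. Its lowest liver value was 1.05 FPKM, above the filter. Cd160-201 had 0.990 FPKM in the big nodule of mouse 25, against 0.466 FPKM for the gene. Entpd1-201 had 2.81 FPKM in the big nodule of mouse 8, against 2.14 FPKM for the gene, and its lowest liver value was 1.06 FPKM, above the filter. Havcr2-201 had 1.19 FPKM in the normal thymus of mouse 2, against 2.27 FPKM for the gene. Shares of members in the family therefore depend on which values are used.

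Patterns over samples were compared after subtracting the mean of each organ, over 15 samples and 11706 genes, as a description. Closest to Tox were Fli1, an ETS factor of endothelial and blood cells (Pearson r 0.987), Dcaf6 and Ust, and closest to Cd274 were Kif21a (r 0.957), Spred2 and Acap2. Closest to Entpd1 were Csf1r, the macrophage growth factor receptor (r 0.90), Ccdc80 and Clec4a1, to Havcr2 Il7r (r 0.934), Coro2a and Scamp1, and to Btla Dpysl3 (r 0.953), Fstl1 and Pdgfrb, a receptor of mesenchymal cells. Closest to Tigit were Ctsw, a protease of cytotoxic lymphocytes (r 0.904), Tbc1d10c and Isg20; Ctsw was also among those closest to Cd160 (r 0.89), between Gpr183 (r 0.903) and Gimap7. For Pdcd1 they were S100a4 (r 0.91), Rassf1 and Dync1li1, for Pdcd1lg2 Cacnb1 (r 0.876), Adam17 and Ubash3a, and for Lag3 Akr1a1 (r 0.949), an aldehyde reductase abundant in liver, and Dcxr. The points share the difference between livers and nodules and, within an animal, the mouse.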

How the data were processed

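Messenger RNA of 15 mouse tissue samples was captured by poly(A) selection and sequenced on an Illumina NovaSeq instrument; the labels' protocols name a kit that keeps strand. The deposited values are FPKM, for genes and for transcripts, per the file headers. The submitters' processing notes name HISAT2 2.1.0 and StringTie 1.3.3, beside FastQC 0.11.7 and cutadapt, and the build mm10. Annotation release, strand setting and the choice of genes: not given in the sources used here. The tables hold no counts. In genes with 1 listed transcript, FPKM times length fell on steps; 44.6 to 59.3% of small values were within 0.05 of whole steps, too few for a count test, so implied read pairs are a description, added after seeing the data. No counting interval is given, and precision rests on 3 samples per group.

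Groups came from the titles, because the tissue field of thymus samples names liver or nodule. Tests used limma 3.58.1 in R 4.3.3 (lmFit, eBayes with a trend) on log2(FPKM + 1), two-sided, for genes with at least 1 FPKM in at least 3 samples, with Benjamini-Hochberg adjustment over all genes of a comparison and a threshold of 0.05. Nodules against livers used the mean log2 value of both nodules of a mouse. The procedure was tested on simulated data. Members, lists and tests were chosen with earlier results of these data known. The text names all 10 members, their partners, up to 6 genes per list by adjusted p, and the 3 most alike genes per member. The macrophage list genes not called in nodules and the unlisted Ifng are named as well. Ptms and Pdzk1 were named after their values were seen. A gene of the interferon-gamma list, left out of its counts, and a gene among those most alike to Lag3 are not reported here. Mouse numbers pair the nodules, since titles name the same animal: deviations from group means correlated at 0.307, 0.252 and 0.325 across genes between nodules of a mouse, and at -0.249 to -0.0365 between mice. Deviations within a group cancel out, so positive values within mice make those between mice negative on balance. The latter are thus no separate support for the pairing. Whether normal samples came from separate cages or litters is not given. Promoters are from RefSeq (GRCm38.p6). Descriptions used Python 3.11.15 with pandas 2.3.3, numpy 2.4.6 and matplotlib 3.10.9.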

Additional observations from a re-analysis of the deposited data

Results flagged for a closer look

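Tox was flagged because its difference between nodules and livers was larger than its difference between model and normal thymi in a test of the interaction itself, by 0.60 on the log2 scale (SE 0.168, adjusted p = 0.0226, limma, 12 values). It was 0.71 in nodules and 0.11 in thymi, and the call did not hold in 4 of 21 alternatives, with adjusted p of 0.0546 to 0.282.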

How the results depend on the processing

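With 3 samples per group, 3 livers that may stem from 2 animals, and many values near or below 1 FPKM, the pseudocount, the filter and the scaling set much of what can be called, and the depth behind low members is known only as implied read pairs. Of the members tested in nodules against livers, 3 were called higher in the main fit. This count was 5 without a filter, where 37% of 13745 genes were called in either direction, and 1 after quantile normalization. With a filter of 5 FPKM, 2606 genes were called in all. No member could be tested under that filter, so 0 were called higher and 0 lower. The highest member value in nodules and livers was 3.02 FPKM, for Entpd1. Leaving out each liver or mouse gave 2 to 3 members higher and 1 lower. With the mouse as a replicate block the same 4 members were called there, and 4359 genes in all against 4316 without it; between big and small nodules it called 0 genes. In big against small nodules, leaving out a mouse gave 0 to 1 gene called, and in thymi leaving out a sample gave 0 to 9. For the difference between the nodule and thymus effects, 1 member was called higher in the main fit, 3 higher and 1 lower with a pseudocount of 0.1 (Cd274, Btla and Lag3 in addition to Tox), 0 after equal sums or quantile normalization, and 0 to 1 when a sample or mouse was left out; the mouse as a random replicate block gave 1 higher, with 2894 genes called. In normal thymi against livers the 8 members called higher became 4 with a filter of 5 FPKM. No paired analysis was possible because the liver columns 3 and 5 cannot be tied to a mouse by their titles, so the planned block on the control number was not run for thymi against livers.

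The values that changed sign were small and not called, apart from Entpd1 in thymi against livers (-0.05 under quantile normalization). In model against normal thymi, Pdcd1 ranged from -0.14 to 0.11 when a sample was left out (0.03 after equal sums, 0.11 without the thymus of mouse 3), Lag3 from -0.27 to 0.13 (0.13 without the thymus of mouse 3), Tigit from -0.05 to 0.30 (-0.03 under quantile normalization) and Cd160 from -0.15 to 0.14 (-0.14 under quantile normalization, -0.01 with median-of-ratios scaling). Between big and small nodules Cd274 ranged from -0.17 to 0.05 and Tox from -0.12 to 0.13. For the difference between organs, Havcr2 ranged from -0.10 to 0.09 (-0.08 after equal sums and under quantile normalization, -0.18 with transcript sums), Btla from 0.00 to 0.14 (-0.03 after equal sums, -0.09 under quantile normalization), Tigit from -0.17 to 0.52, Cd160 from -0.02 to 0.31 and Entpd1 from -0.06 to 0.32 (-0.02 under quantile normalization). Tigit in nodules against livers without a filter ranged from -0.06 to 0.64, and the lowest value was without mouse 25. The cause of these changes was not tested. The fits of low members without a filter under further settings were added after seeing the data.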
